A study of Drosophila melanogaster with 6 samples.

Results

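The genes described here are 45 Drosophila melanogaster genes of the adherens junction, of apicobasal polarity and of the septate junction. They were taken from a list of 46 gene names, of which aka and bark are names of the same gene. The list was made by name with earlier results of these data known, though no measured value served as a filter. All 45 were matched to transcripts of the deposited tables, which hold 15125 genes once genes with identical values are counted as 1. Of the 45, 43 were tested, among 8942 genes with enough counts for edgeR. By role, 9 belong to the adherens junction, 6 to apical polarity, 4 to basolateral polarity, 16 to the core of the septate junction, 4 to the Ly6 proteins of the septate junction, 3 to the tricellular junction and 3 to the smooth septate junction. They lie on all the large chromosome arms, with 11 on 2L, 7 on 2R, 8 on 3L, 8 on 3R and 11 on X.

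Epithelial cells of the fly hold together through a belt of cadherin-based adherens junctions near their apical side, and the apical membrane above it is set by the Crumbs and Par complexes, while Lgl, Dlg and Scrib hold the basolateral side. Below the belt lie the septate junctions, ladder-like contacts built from claudins, cell adhesion proteins and the Na,K-ATPase, which seal the space between cells, and corners where cells meet carry a tricellular form of this junction. Leg discs are folded epithelial sacs that unfold and lengthen into legs at the onset of metamorphosis, when cells change shape and neighbours while the sheet stays closed.

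PolyA RNA was sequenced from imaginal leg discs at 2 stages, with 3 libraries each: wandering larvae of the last instar (wL3), taken before the ecdysone pulse that starts metamorphosis, and prepupae 2 hours after pupal formation (2h APF). All 6 libraries carried the genotype white [1118], a common laboratory background with no transgene named, and animals were raised in standard culture. The study was designed to find small open reading frame genes that change between these stages, and the comparison used here asks how the junction and polarity genes differ between them. The labels do not say whether the replicates come from separate sets of animals, so p-values measure only the spread between these libraries.

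The estimated counts summed to between 24395318 and 33373176 per library. The 12 markers of leg disc epithelium, Dll and dac among them, summed to between 2730 and 2918 CPM in the 6 libraries (CPM being counts scaled to library size by edgeR's TMM method). All 12 passed the filter, and 5 of them, Dll and Antp among them, were called lower at 2h APF and 2, Scr and ss, higher. Ubx was uneven between replicates and not called, at 25.8, 43.9 and 47.2 CPM at wL3 and 43.2, 141.7 and 36.3 CPM at 2h APF (replicates 1, 2 and 3). Other tissues contributed unequally: 7 fat body markers summed to 38.3 CPM in wL3 replicate 1, to 3860 and 2478 CPM in the other wL3 libraries and to between 218 and 902 CPM at 2h APF, with none called. In addition, 8 hemocyte markers fell from between 208 and 380 CPM to between 85.0 and 105 with 7 of the 8 called lower, and 7 salivary gland markers fell from between 70.1 and 230 CPM to 0.658 or less, with all 6 that were tested called lower. The 9 myoblast and muscle markers summed to between 236 and 389 CPM at wL3 and to between 295 and 315 CPM at 2h APF, with twi, Him, zfh1 and htl called higher and Mhc, Tm2 and up, genes of differentiated muscle, called lower. Tm2 was at 0 in all 2h APF libraries. In bulk RNA, fewer cells of a type and less RNA per cell cannot be told apart. With 3 libraries against 3, the smallest p-value that an exact permutation test of a single value can give is 0.1.

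Most junction and polarity genes were expressed at both stages and changed by small amounts. At an adjusted p under 0.05 (edgeR quasi-likelihood test, Benjamini-Hochberg adjustment over all genes tested), 24 of the 43 members tested were higher at 2h APF, 11 were lower and 8 were not called. The background over all genes tested was 30.4% higher and 36.7% lower, against 55.8% and 25.6% of the members tested. A change beyond 1 log2 unit was called upward for 1 member, nrv1, and downward for none, where the background was 9.63% upward and 8.69% downward. The libraries of the stages did not overlap in 37 of the 43 members, or 86.0%, where the background was 73.3%.

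The size of the changes and the spread between replicates were both small. The median log2 fold change was 0.16 over the members tested and -0.04 over all genes tested, and the median absolute log2 fold change was 0.22 over the members and 0.39 over all genes. The median coefficient of variation of the members' CPM was 2.13% at wL3 and 2.47% at 2h APF, where all genes tested had 4.54% and 5.57%. Spread, calls and overlap between stages also depend on a gene's counts, and members were not set against genes of like counts. The median standard error of a member's log2 fold change was 0.03. Differences as small as 6.9%, that of Nrx-IV, passed the test, and the direction of the smallest ones moved with the scaling. With libraries scaled to their total counts, the median of all genes went from -0.04 to -0.16, and 18 members were called higher and 15 lower, so that the share of higher among the called members was 54.5% in place of 68.6% (all genes: 34.8% in place of 45.3%). Without wL3 replicate 1, the library with little fat body RNA, 27 members were called higher and 9 lower.

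**Figure D1:**
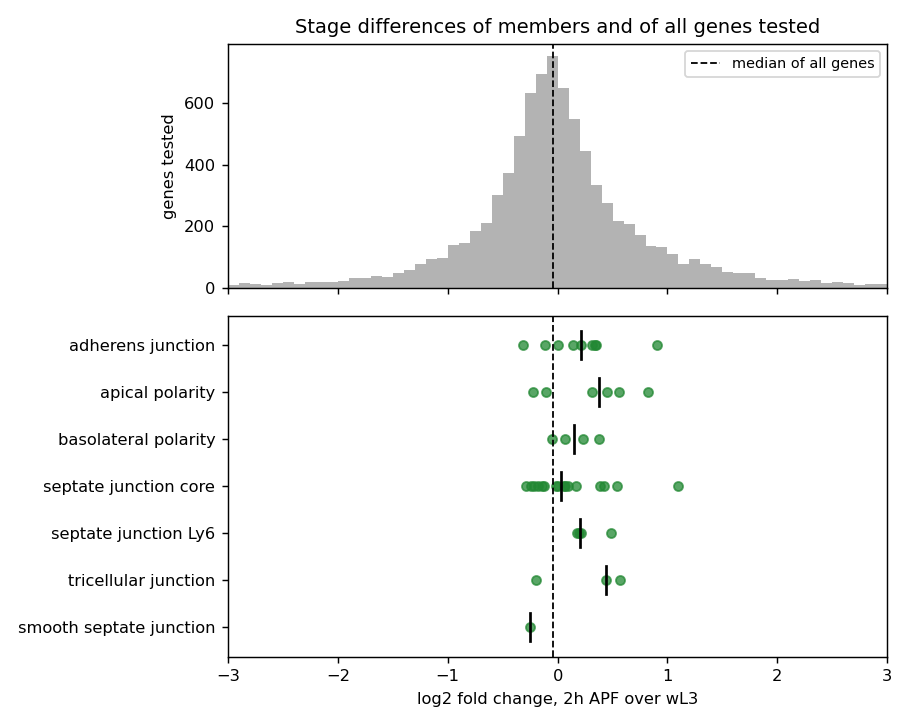
Log2 fold changes (2h APF over wL3, edgeR) of all 8942 genes tested as a histogram above, and of the 43 members tested below, 1 point per gene, with a black bar at the median of each junction type. The horizontal axis is limited to values between -3 and 3, and the dashed line is the median of all genes, -0.04. All types but the smooth septate junction have their median to the right of that line, and 42 of 43 members lie within 1 log2 unit of 0.

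The adherens junction genes rose on balance, with 6 of 9 called higher, 2 lower and a median log2 fold change of 0.21. shg, which encodes the cadherin of the belt (DE-cadherin), had 521, 532 and 516 CPM in the larval libraries (replicates 1, 2 and 3, the order used throughout) and 630, 680 and 676 CPM in the prepupal ones. All 2h APF libraries were above all wL3 libraries, and the log2 fold change was 0.34 (SE 0.04, adjusted p = 0.00011, edgeR). arm, whose product β-catenin binds the cadherin tail and also carries the Wingless signal, went from 1098, 1017 and 1058 to 1263, 1341 and 1341 CPM, a log2 fold change of 0.31. alpha-Cat, the link from β-catenin to actin, rose less, from a mean of 270.3 CPM ± 4.46 (SD, n = 3) to 297.4 ± 3.12, and p120ctn, which binds the cadherin tail at another place, rose by a log2 fold change of 0.21. Vinc, the vinculin that is recruited to α-catenin under tension, rose from 117.5 CPM ± 4.01 to 150.1 ± 3.30, a log2 fold change of 0.35.

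Among the adherens junction genes, ed moved most. It encodes Echinoid, an immunoglobulin-type adhesion protein that binds across cell contacts and recruits the scaffold Canoe. It was at 991, 989 and 966 CPM at wL3 and at 1746, 1939 and 1819 CPM at 2h APF. The lowest 2h APF library was far above the highest wL3 library, and the mean rose by 86.8% with a log2 fold change of 0.90 (SE 0.04, adjusted p = 1.3e-06, edgeR). The cytoplasmic scaffolds did not follow. pyd, the fly ZO-1 protein, fell from 627, 639 and 628 to 492, 516 and 519 CPM, a log2 fold change of -0.31 (adjusted p = 7.04e-05, edgeR). cno, the afadin that ties the belt to actin, stayed near 232.3 CPM ± 4.01 at wL3 and 233.1 ± 13.2 at 2h APF, with stages that overlap and a log2 fold change of 0.0047 (SE 0.04, adjusted p = 0.932, edgeR). jub, the Ajuba protein that couples junction tension to the Hippo pathway, had 99.5, 98.5 and 94.2 CPM at wL3 and 93.9, 87.3 and 88.9 CPM at 2h APF. The nearest libraries of the stages are 94.2 and 93.9 CPM, and its call as lower (log2 fold change -0.11, adjusted p = 0.0407, edgeR) was lost in 11 of 15 alternative settings.

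Levels of different genes can be compared per transcript length, in TPM, which divides counts by length and scales each library to the same total. Per TPM of shg there were 3.61 ± 0.18 (SD, n = 3) of arm at wL3 and 3.54 ± 0.03 at 2h APF, with libraries of the stages that overlap. This difference in the ratio of arm RNA to shg RNA is smaller than the spread between the wL3 libraries (exact permutation p = 0.6, two-sided). Protein levels were not measured. The ratio of ed to shg went from 1.78 ± 0.02 to 2.63 ± 0.08, and that of alpha-Cat to shg from 0.970 ± 0.031 to 0.844 ± 0.042, both without overlap. In all, 16 such ratios were computed, 14 of them had no overlap between stages, and each of these 14 has an exact permutation p of 0.1 (two-sided), the smallest possible here, and 0.114 after adjustment over the 16. The pairs were picked among the members and no ratios of other genes were computed, so this count has no background of its own. Of the single genes tested, 73.3% had no overlap.

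**Figure D2:**
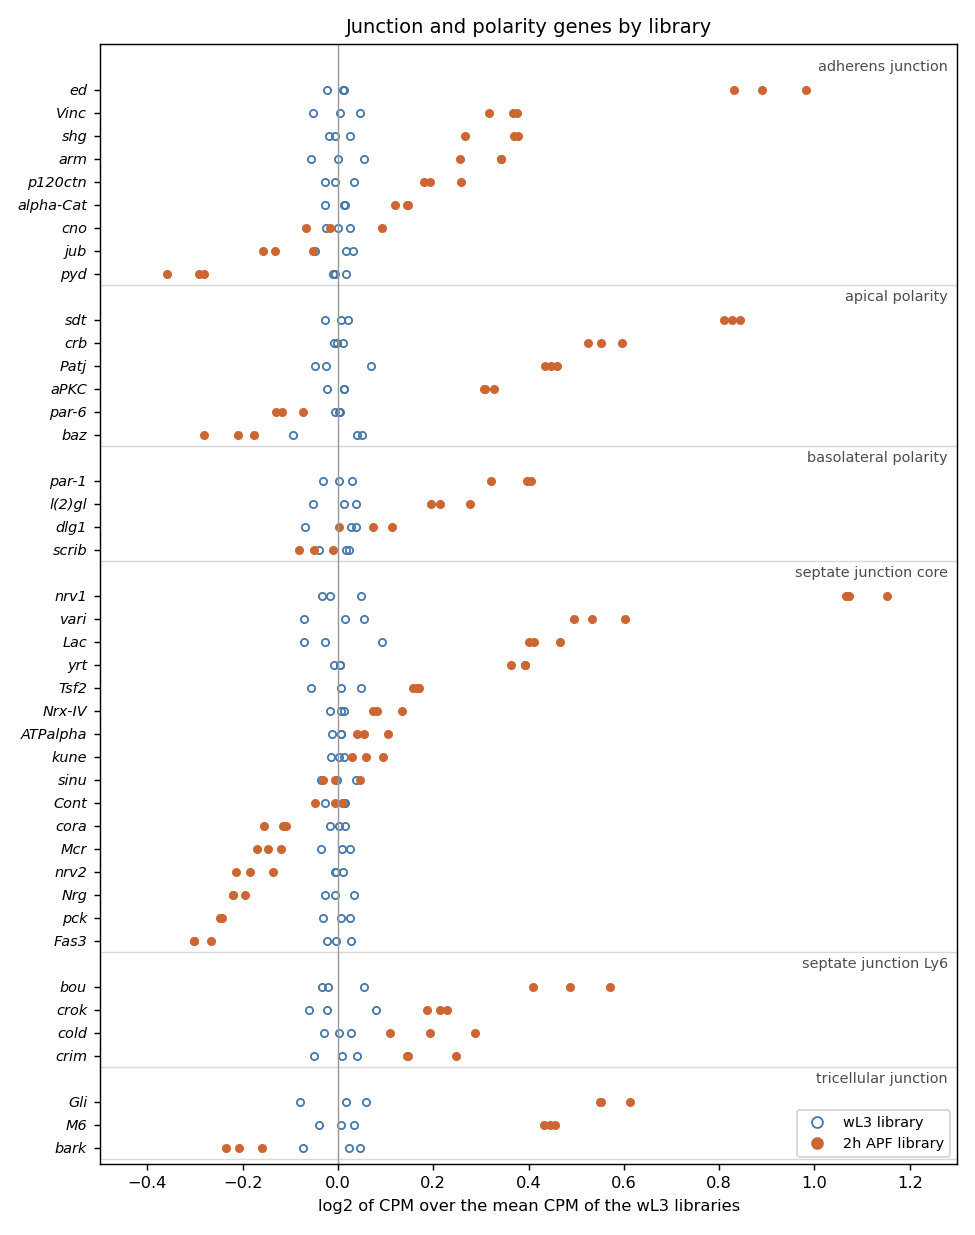
Each row is 1 member and each point 1 library, placed at the log2 of its CPM over the mean CPM of the 3 wL3 libraries, with open circles for wL3 and filled circles for 2h APF. The 3 smooth septate junction genes are left out because of their low counts. Points of the same stage lie close together, and ed, sdt and nrv1 have the 2h APF libraries farthest to the right.

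The apical polarity genes separated into those of the Crumbs complex, which all rose, and parts of the Par complex, which did not move together. crb encodes the transmembrane protein Crumbs that marks the apical membrane. It was at 352, 351 and 355 CPM at wL3 and at 508, 517 and 533 CPM at 2h APF, with no overlap and a log2 fold change of 0.56 (SE 0.03, adjusted p = 2.76e-06, edgeR). sdt encodes Stardust, the MAGUK scaffold that binds the Crumbs tail, and rose further, from 201, 197 and 203 CPM to 351, 359 and 356 CPM. Its mean rose by 77.4% (log2 fold change 0.83, SE 0.03, adjusted p = 6.01e-07, edgeR). Patj, a PDZ scaffold of the same complex, rose from 67.1 CPM ± 2.89 (SD, n = 3) to 91.4 ± 0.82, a log2 fold change of 0.45. In TPM, sdt stood at 0.687 ± 0.014 of crb at wL3 and at 0.855 ± 0.022 at 2h APF, whereas Patj went from 0.461 ± 0.020 to 0.427 ± 0.007 of crb.

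In the Par complex, aPKC, the kinase, rose from 180, 180 and 176 CPM to 221, 221 and 224 CPM (log2 fold change 0.31, SE 0.03, adjusted p = 3.57e-05, edgeR). par-6, its adaptor, was at 134, 134 and 133 CPM at wL3 and at 122, 127 and 123 CPM at 2h APF. The stages of par-6 do not overlap, but its log2 fold change of -0.11 lost its call in 6 of 15 alternative settings. baz, the Par-3 scaffold that recruits both, fell from 52.3 CPM ± 2.86 to 44.8 ± 1.66, a log2 fold change of -0.22 (SE 0.05, adjusted p = 0.00614, edgeR). With counts rescaled from TPM the adjusted p of baz was 0.0503 in the same edgeR test. The TPM of par-6 was 0.760 ± 0.008 of that of aPKC at wL3 and 0.568 ± 0.015 at 2h APF.

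Of the basolateral polarity genes, 2 of 4 rose and none fell. par-1, a kinase that keeps Bazooka off the lateral membrane, went from 377, 368 and 384 CPM to 471, 499 and 496 CPM (log2 fold change 0.38, SE 0.03, adjusted p = 4.24e-05, edgeR). l(2)gl, the Lgl protein that is antagonized by aPKC, went from 401, 420 and 427 CPM to 476, 483 and 504 CPM, a log2 fold change of 0.23 without overlap. Its partners were not called. dlg1 was at 246.9 CPM ± 10.01 (SD, n = 3) and 258.1 ± 10.02 (log2 fold change 0.06, SE 0.04), and scrib at 352.4 ± 8.31 and 341.2 ± 8.30 (log2 fold change -0.05, SE 0.03). The libraries of the stages overlap for both of these scaffolds, which with Lgl form the basolateral module. dlg1 was called higher in 2 of 15 alternative settings, and scrib was called lower with scaling to total counts.

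The core septate junction genes went in both directions, with 6 of 16 higher, 6 lower and 4 not called, and a median log2 fold change of 0.03. The largest change of all members was in nrv1, which encodes a β subunit of the Na,K-ATPase. nrv1 was at 88.6, 83.8 and 84.7 CPM at wL3 and at 179, 191 and 180 CPM at 2h APF, so that the mean rose by 114.0% (log2 fold change 1.10, SE 0.04, adjusted p = 6.01e-07, edgeR). With libraries scaled to their total counts its log2 fold change was 0.98, just inside 1 log2 unit. nrv2, the other β subunit on the list and the one known for its role in septate junctions, fell from 242, 245 and 242 CPM to 209, 221 and 214 CPM (log2 fold change -0.18, SE 0.03, adjusted p = 0.00137, edgeR).

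The β subunit genes are neighbours on chromosome arm 2L and are transcribed from the same strand (BDGP6.54 annotation). nrv1 spans 6778555 to 6786861 and nrv2 spans 6789770 to 6798862, with 2908 bases between them. Of the TPM of both genes together, nrv1 carried 25%, 24% and 24% in the wL3 libraries and 44%, 44% and 44% in the 2h APF libraries. No 2h APF library came near a wL3 library in this share. ATPalpha, the catalytic α subunit, was at 647.3 CPM ± 4.98 (SD, n = 3) and 677.7 ± 15.8 and was not called (log2 fold change 0.07, adjusted p = 0.0809, edgeR), though it was called higher in 7 of 15 alternative settings. The summed TPM of nrv1 and nrv2 over that of ATPalpha was 1.12 ± 0.01 at wL3 and 1.25 ± 0.02 at 2h APF.

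Of the other core genes that rose, vari had the largest change. vari encodes Varicose, a MAGUK scaffold that binds the tail of Neurexin IV, and went from 329, 302 and 320 CPM to 447, 459 and 481 CPM (log2 fold change 0.54, SE 0.04, adjusted p = 1.94e-05, edgeR). Lac, the immunoglobulin-type adhesion protein Lachesin, went from 537, 480 and 494 CPM to 666, 670.5 and 696 CPM, a log2 fold change of 0.43. yrt, a FERM protein that restrains Crumbs and acts in septate junctions, rose from 131.2 CPM ± 0.68 to 171.1 ± 2.04, a log2 fold change of 0.38. Tsf2, the melanotransferrin that is needed for junction assembly, rose by a log2 fold change of 0.16, a call lost with scaling to total counts.

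The adhesion complex at the centre of the junction changed little and unevenly. Nrx-IV, its neurexin, was at 535.1 CPM ± 5.77 (SD, n = 3) and 572.2 ± 13.0, a log2 fold change of 0.10 (SE 0.03, adjusted p = 0.022, edgeR) that passed under an adjusted p of 0.05 in 9 of 15 alternatives and had the value -0.02 with scaling to total counts. Cont, its contactin partner, was at 685.1 ± 10.8 and 677.7 ± 13.7 and was not called (log2 fold change -0.02, SE 0.03). Nrg, the neuroglian of the same complex, fell from 642, 669 and 651 CPM to 561, 562 and 572 CPM (log2 fold change -0.21, SE 0.03, adjusted p = 0.000385, edgeR). cora, the FERM protein that binds the Neurexin IV tail, fell by 8.4% from 518.1 CPM ± 6.0 to 474.6 ± 8.07. In TPM, vari stood at 1.21 ± 0.07 of Nrx-IV at wL3 and at 1.65 ± 0.02 at 2h APF, while cora went from 0.844 ± 0.010 to 0.704 ± 0.012. The 2 cytoplasmic partners of Neurexin IV thus moved in opposite directions relative to it.

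The claudins, 4-pass membrane proteins that seal the junction, did not move as a group. pck fell from 177, 175 and 170 CPM to 147, 147 and 147 CPM (log2 fold change -0.25, SE 0.03, adjusted p = 0.000198, edgeR). kune was at 140.4 CPM ± 1.35 (SD, n = 3) and 146.6 ± 3.29, and sinu at 221.7 ± 5.68 and 222.2 ± 6.11, and neither was called. The stages do not overlap for kune, whose log2 fold change of 0.06 was called in 4 of 15 alternatives and was -0.05 with scaling to total counts. Fas3, a homophilic adhesion protein, fell from 787, 804 and 777 CPM to 640, 656 and 640 CPM (log2 fold change -0.29, SE 0.03, adjusted p = 5.76e-05, edgeR). Mcr, a macroglobulin complement-related protein needed for septate junctions, fell by 9.6%, a log2 fold change of -0.15 (SE 0.03).

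All 4 Ly6 genes, whose small GPI-anchored products are needed for septate junctions to form, were higher at 2h APF, with a median log2 fold change of 0.20. bou moved most, from 58.1, 55.2 and 54.7 CPM to 74.3, 78.5 and 83.2 CPM (log2 fold change 0.49, SE 0.05, adjusted p = 7.17e-05, edgeR). crok, crim and cold had log2 fold changes of 0.21, 0.18 and 0.20. No library of these 4 genes overlapped between stages, but the calls of crok, crim and cold were lost with scaling to total counts, where their log2 fold changes were 0.10, 0.07 and 0.09. Over all genes tested, 30.4% were higher and 73.3% had no overlap, so the lack of overlap in 4 genes says little about the group.

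The tricellular genes divided. Gli, which encodes Gliotactin at cell corners, rose from 311, 283 and 302 CPM to 437, 438 and 457 CPM (log2 fold change 0.57, SE 0.04, adjusted p = 1.23e-05, edgeR). M6, a proteolipid protein of the corners, rose from 131, 125 and 129 CPM to 176, 173 and 174 CPM, a log2 fold change of 0.44. bark, also named anakonda and needed to bring Gliotactin to the corners, fell from 298, 323 and 318 CPM to 266, 271 and 280 CPM (log2 fold change -0.20, SE 0.04, adjusted p = 0.003, edgeR). The ratio of Gli to bark in TPM went from 2.64, 2.21 and 2.40 at wL3 to 4.16, 4.08 and 4.11 at 2h APF.

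**Figure D3:**
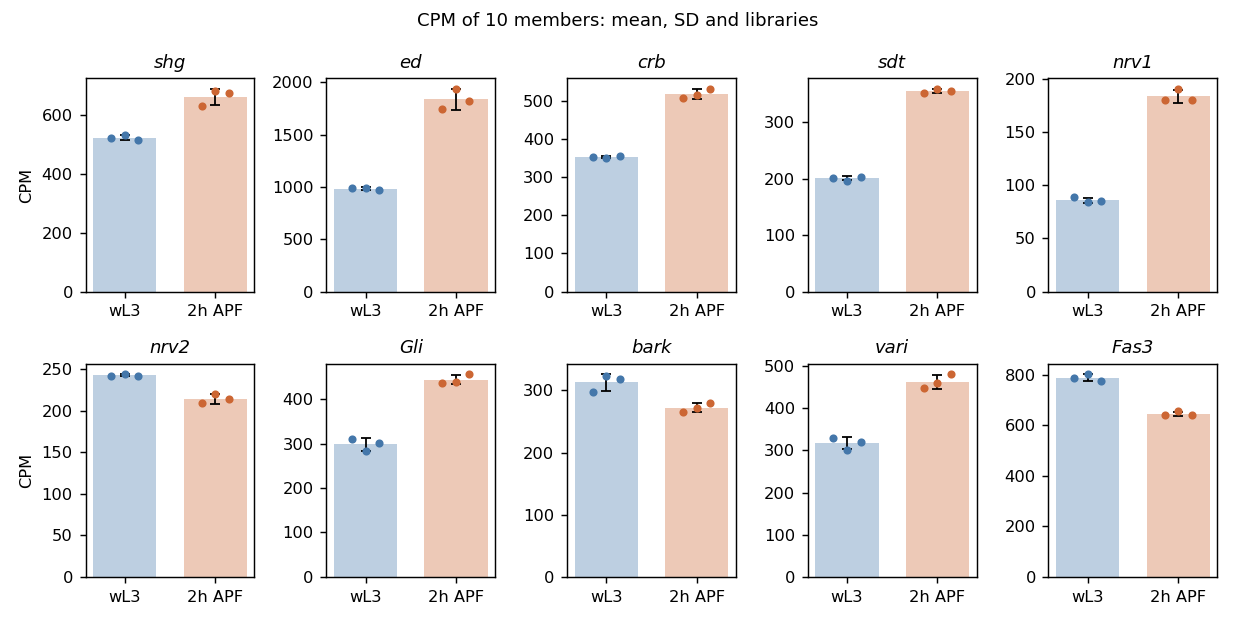
CPM (TMM scale, axes from 0) of 10 members at wL3 and 2h APF, with a bar at the mean of 3 libraries, an error bar of 1 SD and a point for each library. shg, ed, crb, sdt, nrv1, Gli and vari rose, and nrv2, bark and Fas3 fell, with no overlap between the libraries of the stages in any panel. All 10 were picked among the called members, and members whose stages overlap, such as cno, dlg1 and scrib, are not among them. Over all genes tested, 73.3% had no overlap.

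The smooth septate junction genes, which build the junction of the midgut and the Malpighian tubules, were near the limit of detection. mesh and Ssk had at most 0.632 CPM in any library and did not pass the filter. Tsp2A had between 0.481 and 1.17 CPM, and its log2 fold change of -0.25 has an SE of 0.42 (adjusted p = 0.626, edgeR). With so few counts, a difference in these genes could not be measured. The 7 midgut markers summed to 0.241, 1.73 and 11.7 CPM in wL3 replicates 1, 2 and 3 and to at most 0.0774 CPM at 2h APF, and none passed the filter. mesh, Ssk and Tsp2A also had their highest CPM in wL3 replicate 3. The part of gut RNA in these values was not tested. In TPM, their means lay between 0.029 for mesh at 2h APF and 1.37 for Tsp2A at wL3, while the other 42 members had means between 8.87 and 529.

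Per transcript length the members covered a wide range. arm had the highest level at both stages, 425.8 TPM ± 13.7 (SD, n = 3) at wL3 and 529.4 ± 13.9 at 2h APF. At wL3 it was followed by Fas3 at 339.0 ± 6.15, Lac at 304.3 ± 15.3, ed at 210.3 ± 2.00 and kune at 209.6 ± 3.36, and the levels of ed and kune differ by less than their SD. At 2h APF the order was Lac at 409.1 ± 9.25, ed at 393.5 ± 17.4 and Fas3 at 272.8 ± 2.19, so that ed moved past Fas3, and the levels of Lac and ed differ by less than the SD of ed. The next in order after these, vari at 234.8 ± 7.68, was above kune at 217.8 ± 5.77. The lowest level outside the smooth septate junction was that of baz, 10.3 ± 0.61 at wL3 and 8.87 ± 0.26 at 2h APF. The next lowest was Patj at wL3, 25.9 ± 0.89, and bark at 2h APF, 32.9 ± 0.84. baz thus stood well below its partners par-6, at 55.4 ± 0.39, and aPKC, at 72.9 ± 0.75 TPM at wL3. The median over all 45 members was 107.9 TPM at wL3 and 117.3 TPM at 2h APF.

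**Figure D4:**
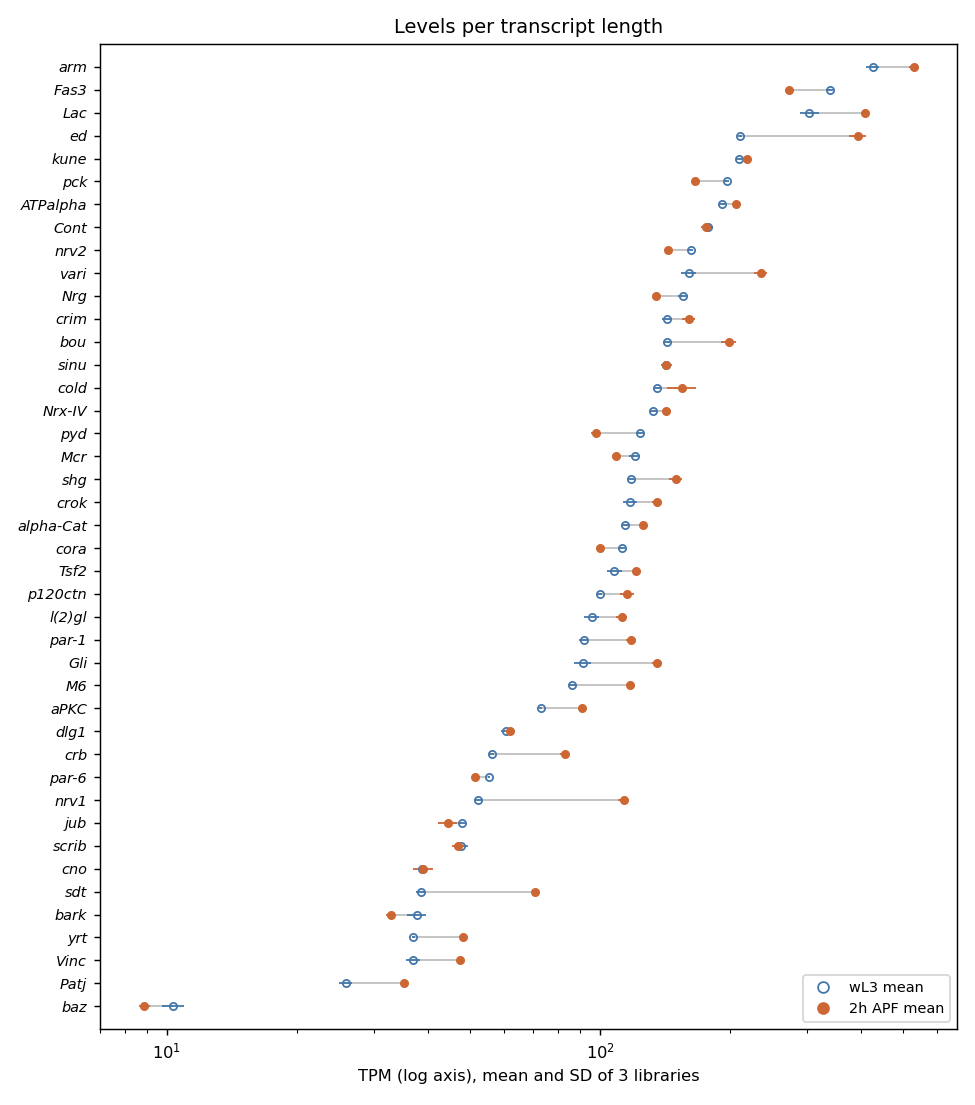
Mean TPM of 42 members at wL3 (open) and 2h APF (filled) on a log axis, with horizontal bars of 1 SD over 3 libraries and a grey line that joins the stages. The 3 smooth septate junction genes are left out. Genes are ordered by their wL3 mean, from arm at the top, 425.8 TPM, to baz, 10.3 TPM, and the longest grey lines belong to nrv1, ed and sdt.

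Beyond the level of the gene, transcripts of some members changed in their share of the gene's counts. For 26 members with at least 2 transcripts past the filter, 138 transcripts were tested with edgeR's diffSpliceDGE, and a transcript was called at an adjusted p under 0.05 over all transcripts and a difference of at least 10 percentage points between stage means. Called transcripts were found in 5 of these 26 members, sdt, pyd, Fas3, dlg1 and scrib, with 11 transcripts in all, where the background was 4.75% of the 3434 genes tested. These 3434 genes had 10705 transcripts tested, fewer per gene than the members had, so a member had more transcripts that could be called. Members were not set against genes of like transcript number or counts, so the shares are not on a like basis. The deposited counts do not hold kallisto's uncertainty in assigning reads among transcripts of a gene, and these transcripts share most of their sequence. At a difference of at least 20 percentage points no member was called.

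sdt had the clearest change. Its transcript sdt-RF was listed at 0 counts in all 3 wL3 libraries and at 1143, 1712 and 1444 counts at 2h APF, or 14.1%, 18.4% and 14.2% of the gene (adjusted p = 2.58e-19, edgeR). sdt-RI rose from 18.7%, 18.2% and 15.5% to 28.5%, 26.6% and 28.4%, and sdt-RB fell from 16.5%, 23.6% and 18.0% to 9.96%, 5.61% and 8.22%. In the BDGP6.54 annotation sdt-RB and sdt-RF share their transcription start, at 8193200 on chromosome X, and the first and last coding base, and differ in their coding part by a stretch of 1299 bases, or 433 codons, between 8224785 and 8226083. The 4 of 12 sdt transcripts that hold this whole stretch carried 27.6%, 33.2% and 31.4% of the gene's counts at wL3 and 11.5%, 8.28% and 10.7% at 2h APF. Transcripts that lack this stretch or a part of it therefore made up more of a gene total that itself rose. The deposited length of sdt-RB, 5781 bases, differs from its 6828 bases in the annotation, so the list of transcripts used by the authors was not identical to the annotation used here.

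pyd, which fell as a gene, changed between transcripts with different starts. pyd-RI, which starts at 8857661 on chromosome arm 3R, carried 51.7%, 52.7% and 51.8% at wL3 and 41.4%, 40.3% and 41.7% at 2h APF (adjusted p = 0.0462, edgeR). pyd-RJ, which starts further upstream at 8931896, went from 10.7%, 9.83% and 9.83% to 21.5%, 21.1% and 19.5% (adjusted p = 3.99e-11, edgeR). The annotated coding parts have 1386 codons for pyd-RI and 1735 codons for pyd-RJ and differ at their start. In counts not scaled to library size, pyd-RI fell from between 9339 and 10807 per library to between 4693 and 6171. On the same scale, pyd-RJ was at between 1740 and 2225 and then at between 2432 and 2894.

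Fas3 changed between transcripts with the same start and different coding ends. Fas3-RA rose from 29.4%, 29.96% and 29.2% to 42.6%, 42.6% and 42.2% (adjusted p = 0.00015, edgeR), and Fas3-RB fell from 28.3%, 27.8% and 27.7% to 17.8%, 13.7% and 15.2% (adjusted p = 4.47e-08, edgeR). Their coding parts have 508 and 401 codons and differ at the end of the protein. The stages do not overlap for either transcript.

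The basolateral scaffolds that were not called as genes did change in their transcripts. For dlg1, the share of dlg1-RS rose from 41.7%, 39.8% and 41.4% to 53.4%, 50.2% and 56.6%, and that of dlg1-RQ fell from 29.7%, 27.3% and 27.7% to 16.7%, 16.7% and 14.95%. Their coding parts differ by 45 bases, or 15 codons, between 11400788 and 11400832 on chromosome X, and the 9 of 21 dlg1 transcripts that hold these bases went from 36.0% ± 1.09 (SD, n = 3) to 22.3% ± 1.42 of the gene. For scrib, scrib-RJ rose from 12.4%, 14.9% and 10.2% to 32.5%, 22.2% and 26.5%, and scrib-RL fell from 24.5%, 23.8% and 22.3% to 9.33%, 19.5% and 10.5%. Between them lie 477 coding bases, or 159 codons, between 26597647 and 26598123 on chromosome arm 3R, and transcripts with these bases carried 41.8% ± 3.86 at wL3 and 30.8% ± 3.76 at 2h APF. At 2h APF the libraries were spread widely for scrib, with replicate 2 nearest to wL3.

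**Figure D5:**
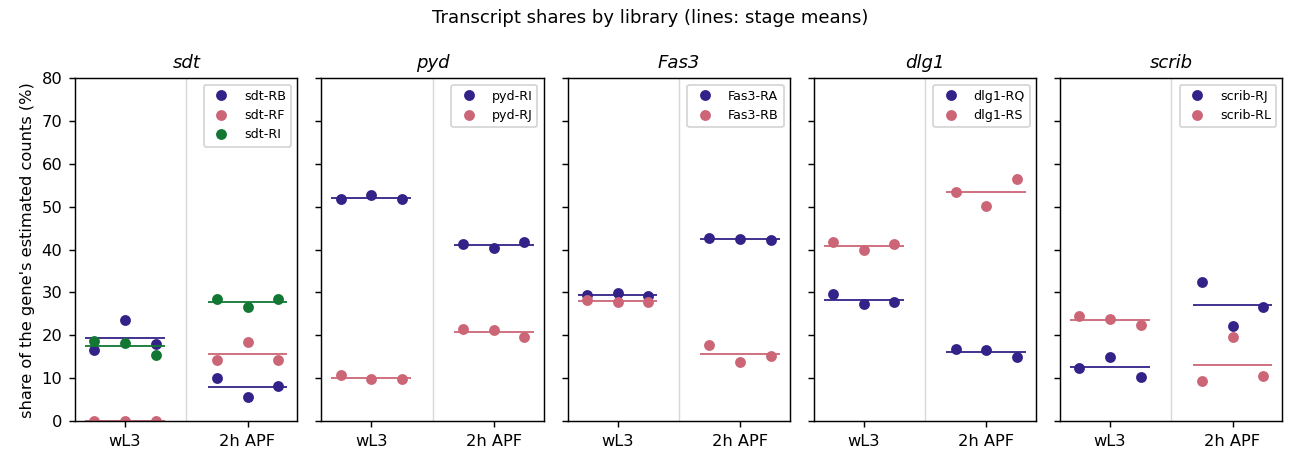
Share of the gene's estimated counts, in percent, of the 11 called transcripts of 5 members, 1 panel per gene, with a point for each library in replicate order and a line at each stage mean. sdt-RF lies at 0 in the wL3 libraries and between 14.1% and 18.4% in the 2h APF libraries, and the paired transcripts of pyd, Fas3, dlg1 and scrib move in opposite directions.

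Genes of other cell types that carry these junctions also moved between the stages. Of 5 tracheal markers, which summed to between 1063 and 1235 CPM at wL3 and to between 1571 and 1689 CPM at 2h APF, 3 were called higher (pio, serp and btl), none was at 0, and trh, which defines tracheal cells, was at between 109 and 114 CPM and then at between 111 and 119 CPM. Most of the sum was pio, with means of 719 and then 1037 CPM, and serp, with 291 and then 468 CPM. btl had means of 10.3 and then 13.9 CPM, and trh and verm were not called, so the sum does not measure tracheal content. The 8 glial markers summed to between 78.0 and 114 CPM at wL3 and to between 74.1 and 80.3 CPM at 2h APF, with repo, moody and wrapper called higher, Gs2 lower, none at 0 in every library, and repo at between 9.29 and 11.9 CPM and then at between 18.3 and 19.2 CPM. The 6 neuronal markers summed to between 125 and 180 CPM and then to between 267 and 324 CPM, with none at 0 in every library. Of these, futsch and Appl were called higher, futsch from a mean of 28.1 CPM to 129.9 CPM. The other 4 were not called, among them elav, with a mean of 80.9 CPM and then 84.2 CPM. The part of these cell types, and of the muscle, hemocyte and fat body RNA given above, in the changes of the junction and polarity genes was not tested.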

How the data were processed

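The 6 libraries (3 at wL3, 3 at 2h APF) were analysed from the authors' files. The authors assigned strand-specific paired reads to transcripts with kallisto and deposited, for each of 42506 targets, an estimated count and a TPM value, with no scaling between libraries. The submitters' notes name dm3, and versions and kallisto's strand setting are not given in the sources used here. The extraction text in the labels speaks of embryos, whereas the tissue label and the methods name leg discs, which was followed.

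FlyBase transcript identifiers placed 27011 targets in 15259 genes of the Ensembl annotation BDGP6.54. They carried between 96.4% and 96.6% of each library's counts, and 64 groups of genes with identical values were counted as 1 gene each. Counts were summed per gene, rounded and tested with edgeR 4.0.16 in R 4.3.3 (TMM, filterByExpr, quasi-likelihood test, Benjamini-Hochberg adjustment over 8942 genes), with stage as the only term. The study used sleuth, whose resampled counts were not used here. Standard errors were derived from the F statistics. Transcript shares were tested with diffSpliceDGE. The scripts were tested on simulated data. Alternatives were RLE factors, total library size, DESeq2 1.42.0, 2 other filters, counts rescaled from TPM, limma 3.58.1 on log2(TPM + 0.5) and log2(TPM + 0.1), a block for replicate number and fits without each library in turn. Exact permutation tests and plots used Python 3.11.15, numpy 2.4.6, pandas 2.3.3, scipy 1.17.1 and matplotlib 3.10.9.

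The members and the other gene lists were chosen with earlier results of these data known. Every member may be named. Of the related lists, up to 2 genes with the largest change in each direction are named, and all 3 transcription factors. Many members overlap another protein-coding gene, arm, Patj, vari, bou and M6 among them. The overlap is nearly always on the opposite strand, but on the same strand for par-1, Nrx-IV and Fas3. The part of overlapping genes in the members' counts was not tested. No sequence was used here. Replicates differed by more than sampling noise, so none was counted as a duplicate.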

Additional observations from a re-analysis of the deposited data

How the results depend on the processing

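Of the 35 called members, 26 were called in the same direction in all 15 alternatives (18 higher, 8 lower). The calls of alpha-Cat, Tsf2, crok, crim and cold were lost with scaling to total counts, that of baz with counts rescaled from TPM, and those of jub, par-6 and Nrx-IV in 11, 6 and 6 settings. Low counts limit the smooth septate junction genes, with at most 1.17 CPM. Leaving out each library gave between 23 and 27 members higher, between 9 and 11 lower, 1 higher and 0 lower beyond 1 log2 unit, and between 4 and 5 members with a changed transcript share. Scaling to total counts gave 0 members higher beyond 1 log2 unit, and a share threshold of 20 percentage points left 0 members in place of 5. The replicate numbers gave no pairing, since deviations of same-numbered libraries correlated at -0.003, 0.147 and -0.255. With the replicate number as a block, 23 members were higher and 10 lower, and 5 had a changed transcript share.

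The median log2 fold changes of the junction types moved with the scaling; the cause beyond the scaling itself was not tested. The adherens junction median was 0.26 with RLE factors and with DESeq2, 0.10 with total counts, 0.24 with counts rescaled from TPM, and between 0.19 and 0.27 on leaving out each library. For apical polarity it was 0.43 with RLE factors and with DESeq2, 0.27 with total counts, 0.40 with a CPM of at least 1 in 3 libraries, 0.41 with rescaled counts, and between 0.37 and 0.44. For basolateral polarity it was 0.19 with RLE factors and with DESeq2, 0.032 with total counts, and between 0.12 and 0.18. For the septate junction core it was -0.081 with total counts, and between 0.013 and 0.080. For the Ly6 genes it was 0.25 with RLE factors and with DESeq2, 0.091 with total counts, and between 0.19 and 0.27. For the tricellular genes it was 0.49 with RLE factors and with DESeq2, 0.33 with total counts, and between 0.43 and 0.50. The median TPM at 2h APF was 118.7 with TPM rescaled by TMM factors.

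With total counts, 4 members that were not called became lower: cno (adjusted p = 0.0412, edgeR), sinu (0.0214), Cont (log2 fold change -0.13, 0.00802) and scrib (-0.16, 0.00473). Some values near 0 changed sign. With total counts, cno was at -0.11, sinu at -0.11, dlg1 at -0.050, kune at -0.052, ATPalpha at -0.047 and Nrx-IV at -0.017. scrib was at 0.0044 with counts rescaled from TPM. Cont was at 0.030 with RLE factors and with DESeq2, at 0.018 with rescaled counts and at 0.00075 with a CPM of at least 1 in 3 libraries. Without a filter on low counts cno was at -0.0036 and sinu at -0.0049. On leaving out each library, cno ranged from -0.041 to 0.056, sinu from -0.018 to 0.062, Cont from -0.028 to 0.010 and Tsp2A from -0.50 to 0.057.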

Other observations

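Further genes of the same junctions were listed by name, and their counts stand beside a background of 30.4% higher and 36.7% lower over all genes tested. Of 14 other adherens junction genes tested, 7 were higher at 2h APF and 2 lower (adjusted p under 0.05, edgeR), with a median log2 fold change of 0.15. kirre, an adhesion protein of the Neph family, went from 45.1, 39.5 and 42.2 CPM to 81.6, 96.9 and 83.5 CPM (log2 fold change 1.05, SE 0.08, adjusted p = 1.75e-05, edgeR), and rst, its paralog, had a log2 fold change of 0.44. Magi and Girdin had the largest falls, with log2 fold changes of -0.20 and -0.16. Of 14 other polarity genes tested, 8 were higher and 2 lower, with a median log2 fold change of 0.19. gukh, which binds Scribble and Dlg, had a log2 fold change of 0.75, and veli, which binds Stardust, had 0.61, whereas Moe, the moesin that links membrane to actin, and 14-3-3epsilon had -0.31 and -0.20.

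Of 15 other septate junction genes, 14 were tested, 6 were higher and 3 lower, with a median log2 fold change of 0.19. wun, a lipid phosphatase, had a log2 fold change of 0.99, and moody, a receptor of the glial barrier, had 0.93. atilla, a Ly6 gene, fell from 3.16, 5.38 and 4.55 CPM to 0.652, 0.348 and 0.772 CPM, a log2 fold change of -2.87, and pasi2 had -0.13. atilla is also known as a marker of a blood cell type, the lamellocyte, and the 8 hemocyte markers fell from between 208 and 380 CPM to between 85.0 and 105 CPM, whose part in the fall of atilla was not tested. The transcription factors grh, which acts on epithelial genes, and esg and sna, which belong to the Snail family that includes repressors of E-cadherin genes, were all higher. grh went from 559, 505 and 521 CPM to 893, 952 and 942 CPM (log2 fold change 0.81, SE 0.05, adjusted p = 2.99e-06, edgeR). esg went from 76.1, 73.6 and 77.4 CPM to 185, 208 and 178 CPM (log2 fold change 1.33, SE 0.06). sna went from a mean of 0.307 CPM to 2.02 CPM, with at most 2.28 CPM in any library (log2 fold change 2.70, SE 0.34, adjusted p = 0.000215, edgeR). The part of these factors in the changes of shg and of the other junction genes was not tested.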
